A study of Homo sapiens with 18 samples.

Results

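The vesicle exocytosis machinery was taken as the genes whose symbol belongs to the synaptotagmins (SYT), syntaxins (STX), syntaxin-binding proteins (STXBP), SNAP and VAMP proteins, RAB3 and RAB27 GTPases, RIMS, UNC13, complexins (CPLX) or synaptotagmin-like proteins (SYTL). This choice by symbol used no measured value and found 68 genes of the 21944 in the deposited table. It covers gene families rather than a proven secretory set, so that *STX5* of the Golgi and *SNAP91*, a clathrin assembly protein, are members as well. The cells were human embryonic stem cell-derived pancreatic progenitors at day 19 of differentiation. Their line is HUES4 in the cell line label and a derivative of SA121 with a GFP reporter for NGN3 (NEUROG3) in the growth protocol. The paper that reported these data names the reporter line for this sequencing. Cells of all groups were detached with accutase and reseeded in wells coated with the low-adhesion laminin isoform LN411 or with fibronectin (FN), and polyadenylated RNA was sequenced 3, 6 or 24 h later from 3 samples per matrix and time, 18 in all. The protocol gives the same differentiation and reseeding for all 6 groups, FN is the reference at each time, and the culture dish is the only setting studied.

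In regulated exocytosis, RAB3 and RAB27 on the vesicle bind effectors such as the SYTL proteins, which tether it beneath the plasma membrane. RIMS and UNC13 proteins prime the docked vesicle, and a VAMP on the vesicle zippers with a syntaxin and a SNAP protein on the plasma membrane under the guidance of STXBP proteins. Synaptotagmins couple this fusion to calcium, with complexins as a clamp, and endocrine islet cells use the same set to release hormone granules. The progenitors studied here precede that stage, and acinar and ductal cells of the same organ use related paralogues for their own secretion.

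The values are the authors' deposited estimates for each gene and time: the LN411 to FN ratio as a log2 fold change, the standard error (SE) of that value and a mean normalized count over all 18 samples. Values of single samples were not analysed here, so the spread between replicates enters through the SE alone and the depth of each library is unknown. A gene was called when its two-sided Wald p-value was under 0.05 after Benjamini-Hochberg adjustment over every gene that passed the authors' filter on low counts at that time. The labels do not say that replicates came from separate cultures, and the paper names them biological replicates without more detail. The p-values measure only the spread between these samples. In bulk RNA, a difference in the number of cells of a type and a difference in RNA per cell cannot be told apart. The pancreatic progenitor identity given in the labels was matched by high mean normalized counts of *PDX1* (12933), *SOX9* (20672) and *GP2* (135959), and the pluripotency genes *POU5F1* and *NANOG* were not listed at any time. Of the 68 members, 65, 66 and 68 were listed at 3, 6 and 24 h, with *SNAP91* and *SYT12* listed only at 24 h and *CPLX2* only at 6 and 24 h. The authors' filter left 64, 50 and 68 members with an adjusted p-value at these times. The lowest mean normalized count tested was 17.1, 108.3 and 2.7 at these times, so weakly expressed synaptotagmins such as *SYT4* could not be called at 6 h.

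At 3 h no member was called, and 3 of the 64 had an unadjusted Wald p-value under 0.05 (*SYT9*, *STXBP4* and *STXBP5*). Of all genes tested at 3 h, 0.383% were called. At 6 h 6 of 50 members were called, beside 8.23% of all genes. *STX18* was higher, beside 4.90% of all genes, and *RIMS4*, *STX7*, *STX16*, *STXBP5* and *SYTL3* were lower, beside 3.33%. This split of 1 higher and 5 lower became 0 and 7 after recentring, in which the median log2 fold change of highly expressed genes (mean normalized count 1000 or more) was subtracted, and 0 and 2 after trends with GC content and transcript length were removed. Calls over all genes became 7.69% and 6.05% under these settings. At 24 h 22 of 68 members were called, 10 higher and 12 lower, while 29.5% of all genes were called, 16.7% higher and 12.8% lower. The median log2 fold change of the members at 24 h was -0.008, against 0.012 over all genes, and the median absolute value was 0.16 against 0.17. The share of calls and both medians of the members thus lay close to those of all genes. Within families the 24 h calls went both ways: *SYT4*, *SYT6*, *RIMS2*, *RIMS4*, *UNC13B* and *RAB3B* were higher on LN411, while their paralogues *SYT2*, *SYT11*, *SYT13*, *RIMS3*, *UNC13C* and *RAB27B* were lower. The difference between 1 paralogue and another was not tested.

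**Figure D1:**
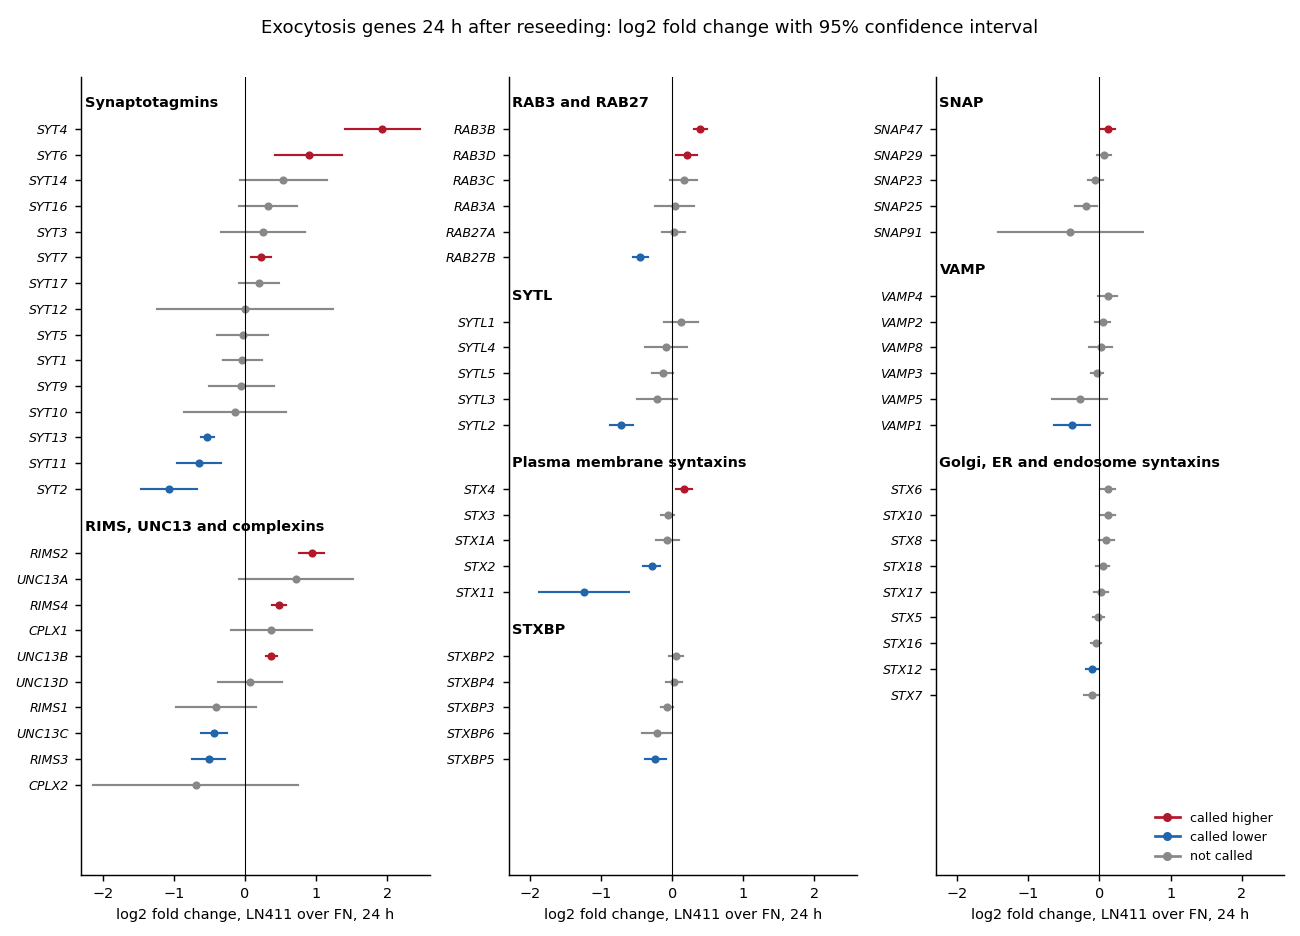
Log2 fold change of LN411 over FN at 24 h for the genes reported here, grouped by role, with points for the estimate and bars for the 95% confidence interval (3 samples per matrix). The 10 genes called higher and 12 called lower are scattered over the families, from *SYT4* at 1.93 to *STX11* at -1.24, and most SNARE genes sit close to 0.

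The effect of the matrix changed over time in a minority of members. From 3 to 6 h 1 of 65 members differed in its log2 fold change by a test of the difference itself, against 0.257% of all genes. From 6 to 24 h 12 of 66 members differed, against 12.8% of all genes, and from 3 to 24 h 13 of 65 differed, against 17.0%. Of the 12, the log2 fold change rose in *SYT4*, *RIMS4*, *RIMS2*, *RAB3B* and *UNC13B*. It fell in *SYT2*, *SYT11*, *SYT13*, *SYTL2*, *RAB27B*, *UNC13C* and *STX11*. The 13 were these genes and *STX2*, in which it also fell. These values are ratios, so they do not tell whether a level moved over time on LN411 or on FN. Since the 6 and 24 h effects enter several of these tests, the counts do not stand independently of each other.

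**Figure D2:**
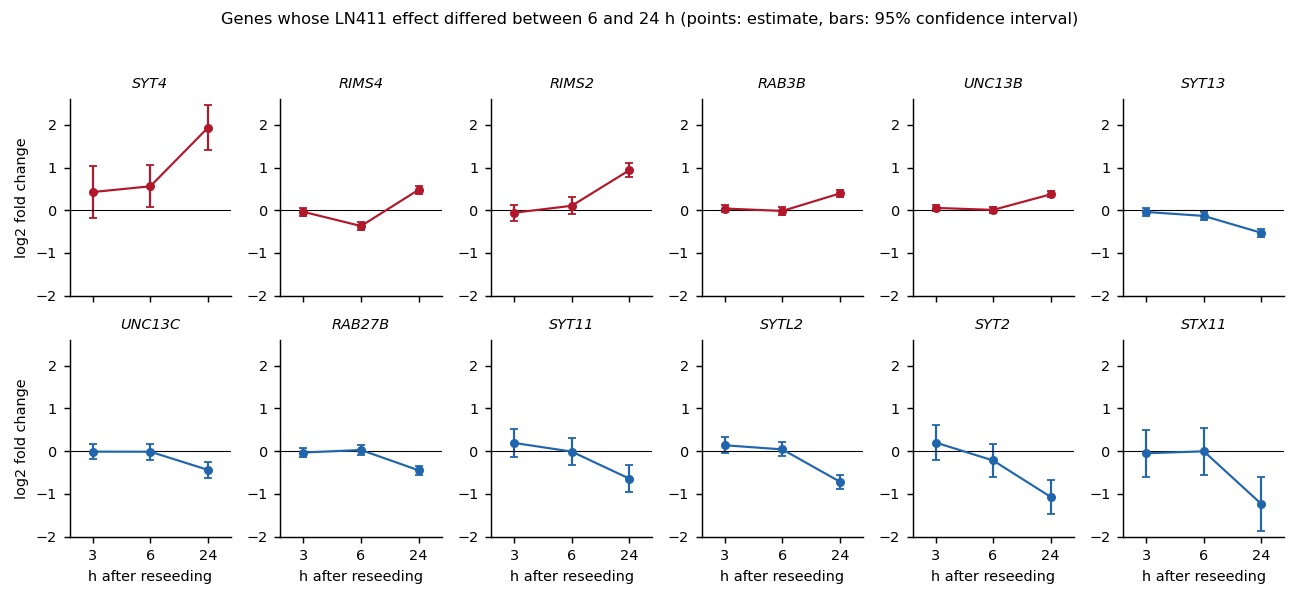
Log2 fold change, LN411 over FN (vertical axis), by hours after reseeding (horizontal axis) for the 12 genes whose effect differed between 6 and 24 h, with 95% confidence intervals. In 11 panels the 3 and 6 h points lie near 0 or overlap in their intervals and the largest departure comes at 24 h. The 6 h intervals of *SYT4* (0.07 to 1.05) and *SYT13* (-0.23 to -0.04) already leave out 0. *RIMS4* alone was called at 6 h, on the opposite side of 0 from its 24 h value, while *SYT4*, *SYT2* and *STX11* had no adjusted p at 6 h.

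Where no other unit is named, values of single genes from here on are log2 fold changes on LN411 relative to FN. Each count of 24 h calls within a group of genes below stands beside 29.5% of all genes called, 16.7% higher and 12.8% lower. No group was tested against that share. Among the calcium sensors, 3 of 15 synaptotagmins were called higher and 3 lower at 24 h, and 5 of these 6 lay at least 0.5 from 0 on the log2 scale. *SYT4*, an atypical synaptotagmin that modulates secretion in neurons and endocrine cells rather than triggering it, had log2 fold changes of 0.43, 0.56 and 1.93 at 3, 6 and 24 h. The 24 h value corresponds to a 3.82-fold higher level on LN411, with a 95% confidence interval from 2.65 to 5.50 and an adjusted p of 1.47e-11 (SE 0.27, 3 samples per matrix). It was the highest value among all 68 genes, from a gene with a mean normalized count of 46.6, and its rise of 1.37 from 6 to 24 h had an adjusted p of 0.0028. *SYT6*, best known from acrosomal exocytosis in sperm, was 1.86-fold higher at 24 h (log2 0.89, SE 0.24, adjusted p = 0.0011), although its change from 6 to 24 h did not pass (adjusted p = 0.093). *SYT7*, a high-affinity calcium sensor of insulin granules, was higher by a log2 fold change of 0.23 (SE 0.072, adjusted p = 0.0061), which is a 1.17-fold level.

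The synaptotagmins called lower at 24 h were of several kinds. *SYT2*, a fast calcium trigger of neuronal release, had log2 fold changes of 0.20, -0.22 and -1.07 at 3, 6 and 24 h (24 h SE 0.20, adjusted p = 8.42e-07). *SYT11*, the closest relative of *SYT4*, went from 0.19 at 3 h and -0.01 at 6 h to -0.64 at 24 h (SE 0.16, adjusted p = 0.00034). *SYT13*, an atypical member without calcium binding, was already at -0.13 at 6 h without a call (adjusted p = 0.074) and reached -0.53 at 24 h (SE 0.046, adjusted p = 2.20e-28). Per length of the longest transcript, *SYT13* had the highest level of the family at 300.1 normalized counts per kb, against 173.5 for *SYT7* and 11.8 for *SYT4*. The highest fold change on LN411 thus came from a gene at a low level. Unlike *SYT2*, the calcium triggers *SYT1*, *SYT5* and *SYT9* were not called. At 24 h *SYT1* had -0.04 (95% confidence interval -0.31 to 0.24), *SYT5* -0.03 (-0.39 to 0.33) and *SYT9* -0.05 (-0.51 to 0.41). These intervals reach past 0.2 on the log2 scale. *SYT3*, *SYT10*, *SYT12*, *SYT14*, *SYT16* and *SYT17* were not called at any time, with 24 h values between -0.14 for *SYT10* and 0.54 for *SYT14*. Exons of *SYT2* share 27.0% of their bases with *PPP1R12B* on the opposite strand, a gene with a mean normalized count of 3097 and a 24 h value of -0.07. Reads in the shared bases cannot be assigned to either gene if strand was not used in counting.

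Of the 5 genes whose log2 fold change rose from 6 to 24 h, *RIMS4* and *RIMS2* had no entry in the RefSeq promoter table used. The 250 bases before the RefSeq transcription start (GRCh38.p14, read 5′ to 3′ on the strand of the gene) are printed for the other 3. These were taken because their log2 fold change rose over the same interval. E-boxes are the letters bound by proneural factors such as NEUROG3. Capitals mark every E-box, CANNTG, which reads the same on both strands in its fixed letters. The windows are chr18:43277491-43277740 on the minus strand for *SYT4*, chr1:51990701-51990950 on the minus strand for *RAB3B* and chr9:35161759-35162008 on the plus strand for *UNC13B*.
SYT4: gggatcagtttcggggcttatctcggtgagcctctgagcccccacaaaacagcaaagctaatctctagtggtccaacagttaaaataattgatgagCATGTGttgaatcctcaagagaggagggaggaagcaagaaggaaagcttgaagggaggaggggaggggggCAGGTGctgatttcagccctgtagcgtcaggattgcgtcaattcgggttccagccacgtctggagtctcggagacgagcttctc
RAB3B: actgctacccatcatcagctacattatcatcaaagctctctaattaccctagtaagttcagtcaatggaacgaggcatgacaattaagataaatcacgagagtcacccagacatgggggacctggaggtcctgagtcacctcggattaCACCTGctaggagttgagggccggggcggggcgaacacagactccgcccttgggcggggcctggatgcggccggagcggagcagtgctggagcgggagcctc
UNC13B: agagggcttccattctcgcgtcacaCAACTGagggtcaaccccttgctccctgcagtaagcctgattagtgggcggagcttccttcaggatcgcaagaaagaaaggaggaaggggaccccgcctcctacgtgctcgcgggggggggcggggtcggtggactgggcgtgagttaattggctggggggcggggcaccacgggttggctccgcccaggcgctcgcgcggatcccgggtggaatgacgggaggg

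These windows hold 2 E-boxes in *SYT4*, 1 in *RAB3B* and 1 in *UNC13B*, and none of them is CAGATG, the form bound by NEUROG3 and NEUROD1. Over windows of 300 bases, which add the 50 bases after the start, 14.8% of 27305 RefSeq promoters hold CAGATG on either strand. Of the 54 members with a promoter in the table, 7 (12.96%) hold it, among them 0 of 7 genes called higher at 24 h, 1 of 10 called lower (*STX11*) and 6 of 37 not called. The looser CANNTG, which contains CAGATG, is in 68.9% of all promoters, in 7 of the 7 called higher, in 6 of the 10 called lower and in 26 of the 37 not called. These are counts of letters in short windows, described without a test.

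In the priming group, 3 of 10 genes were called higher and 2 lower at 24 h. *RIMS2* (chr8:103500610-104254430, GRCh38, GENCODE v44), an active zone scaffold that docks insulin granules through RAB3, had log2 fold changes of -0.06, 0.10 and 0.94 at 3, 6 and 24 h. This is a 1.91-fold higher level on LN411 at 24 h (95% confidence interval 1.70 to 2.15, adjusted p = 1.50e-25), and the rise of 0.83 from 6 to 24 h had an adjusted p of 1.46e-08. *RIMS4* (chr20:44751808-44810546), a short RIM protein that lacks the RAB3-binding part, changed direction. It was at -0.04 at 3 h, -0.37 at 6 h (SE 0.051, adjusted p = 1.18e-10) and 0.48 at 24 h (SE 0.049, adjusted p = 9.47e-21). On the fold scale *RIMS4* fell by 22.6% at 6 h and was 1.39-fold higher at 24 h. Its difference from 3 to 6 h was -0.33 (adjusted p = 0.0041) and from 6 to 24 h 0.85 (adjusted p = 2.30e-30). The earlier difference was lost with a t distribution in place of the normal (adjusted p = 0.55). Under that setting 0 of all genes differed from 3 to 6 h. *RIMS3*, the other short RIM, was lower at 24 h by a log2 fold change of -0.51 (SE 0.12, adjusted p = 0.00012), and *RIMS1* had -0.41 (SE 0.29) without a call. *RIMS4* was at 793.9 normalized counts per kb, 16.4 times the level of *RIMS2* and 26.5 times that of *RIMS3*. Its exons share 9.35% of their bases with *KCNK15* on the opposite strand, which had 0.20 at 6 h and 0.23 at 24 h and was not called.

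The UNC13 proteins, which open syntaxin for SNARE assembly, divided in the same way. *UNC13B* (chr9:35161992-35405338), which encodes Munc13-2, was at 0.05, 0.01 and 0.37 at 3, 6 and 24 h (24 h SE 0.037, adjusted p = 5.42e-22), which is 1.29-fold. *UNC13C* (chr15:53978201-54628707), known mainly from the cerebellum, was at -0.01 at both earlier times and at -0.44 at 24 h (SE 0.092, adjusted p = 1.72e-05). *UNC13B* had 10.01 times the level of *UNC13C* per kb of the longest transcript, and 3.59 times with the median transcript length. *UNC13A* had a 24 h value of 0.72 with an SE of 0.41 at a mean normalized count of 15.5, and *UNC13D*, which serves granule release in blood cells, had 0.07 (SE 0.23). The complexins could not be resolved: *CPLX1* had 0.37 (95% confidence interval -0.19 to 0.94) and *CPLX2* -0.69 (-2.13 to 0.75).

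Of the 6 vesicle GTPases, *RAB3B* and *RAB3D* were called higher and *RAB27B* lower at 24 h. *RAB3B* (chr1:51907956-51990700) had 2225 normalized counts per kb and was at 0.04, -0.02 and 0.39 at 3, 6 and 24 h (24 h SE 0.045, adjusted p = 5.45e-17), or 1.31-fold. Its level was 10.05 times that of *RAB3D*, 26.4 times that of *RAB3A* and 50.8 times that of *RAB3C*. With the median transcript length these ratios were 6.12, 16.2 and 3.36. *RAB3D*, found on zymogen granules of acinar cells, was at 0.20 at both 6 and 24 h and called at 24 h alone (SE 0.072, adjusted p = 0.021), with no difference between the times (adjusted p = 0.99). *RAB3A*, the synaptic form, had 0.03 (SE 0.14) and *RAB3C* 0.16 (SE 0.097) at 24 h without a call. *RAB27B* (chr18:54717860-54895516), a GTPase of secretory granules and exosome release, was at -0.03, 0.03 and -0.45 at 3, 6 and 24 h (24 h SE 0.054, adjusted p = 4.76e-15), or 0.733-fold. Its partner *RAB27A*, which drives insulin granule docking, had 0.02 (95% confidence interval -0.15 to 0.19). *RAB27B* had 6.44 times the level of *RAB27A* per kb. Of the exons of *RAB3D*, 20.7% of the bases lie opposite a long non-coding RNA, and 3.29% are shared on the same strand with *TMEM205*, which was itself higher at 24 h (0.25, adjusted p = 0.0022).

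The SYTL proteins bind RAB27 in its active form and link the vesicle to the membrane. Of the 5 genes, *SYTL2* was called at 24 h, lower like *RAB27B*. *SYTL2* (chr11:85694224-85811159) was at 0.14, 0.04 and -0.72 at 3, 6 and 24 h (24 h SE 0.084, adjusted p = 3.44e-16), which is 0.608-fold with a 95% confidence interval from 0.543 to 0.682. *SYTL4*, known as granuphilin on insulin granules, had -0.09 (SE 0.15), *SYTL5* -0.13 (SE 0.074) and *SYTL1* 0.12 (SE 0.12) without a call. *SYTL3* was called lower at 6 h at -0.49 (SE 0.17, adjusted p = 0.043), but had -0.21 (SE 0.14, adjusted p = 0.28) at 24 h, and the difference between these times was not called (adjusted p = 0.51). *SYTL4* shares 39.0% of its exon bases with *SRPX2* on the opposite strand. As for *SYT2*, reads in the shared bases cannot be assigned to either gene if strand was not used in counting.

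Among the plasma membrane syntaxins, *STX4* was called higher and *STX2* and *STX11* lower at 24 h. *STX11* (chr6:144150487-144191939), best known from granule release in lymphocytes, was at -0.05 at 3 h and -0.003 at 6 h and had the lowest 24 h value of all members, -1.24 (SE 0.32, adjusted p = 0.00085). It is 0.424-fold with a 95% confidence interval from 0.273 to 0.658, and it rests on a mean normalized count of 53.8. *STX2*, an epithelial syntaxin, was at -0.29 (SE 0.061, adjusted p = 2.08e-05), and *STX4*, which serves insulin granule and glucose transporter fusion, at 0.17 (SE 0.057, adjusted p = 0.013). *STX1A*, the main syntaxin of synapses and islet cells, had -0.07 at 24 h with a 95% confidence interval from -0.23 to 0.09. *STX3*, the apical epithelial syntaxin, had -0.06 (-0.15 to 0.03). Per kb, *STX3* had 7.09 times and *STX4* 2.80 times the level of *STX1A*.

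In the remaining core of the fusion complex, 1 of 5 SNAP genes and 1 of 6 VAMP genes were called at 24 h, beside 29.5% of all genes. *SNAP25*, the neuronal and endocrine SNAP, had 0.05, -0.03 and -0.19 at 3, 6 and 24 h, with an adjusted p of 0.057 at 24 h. That value passed the threshold when genes under a mean normalized count of 100 were left out (adjusted p = 0.043) and after recentring (adjusted p = 0.031). *SNAP23*, its broadly expressed counterpart, had -0.06 (95% confidence interval -0.17 to 0.05) and 5.04 times the level of *SNAP25* per kb. *SNAP29* had 0.06 (SE 0.049), *SNAP91* -0.41 (SE 0.52) and *SNAP47* 0.12 (SE 0.048, adjusted p = 0.049). The *SNAP47* call was lost after recentring (adjusted p = 0.12) and after removal of GC content and length trends (adjusted p = 0.051), and 22.8% of its exon bases lie opposite *JMJD4*, which was higher at 24 h (0.22, adjusted p = 0.020). Of the vesicle SNAREs, *VAMP2*, the partner of *SNAP25* in hormone release, had 0.05 (95% confidence interval -0.06 to 0.15), *VAMP3* -0.03 (-0.11 to 0.05) and *VAMP8*, the zymogen granule form, 0.01 (-0.15 to 0.18). For these 3 genes a change of more than 0.2 on the log2 scale lies outside the intervals. *VAMP4* had 0.11 (SE 0.067) and *VAMP5* -0.28 (SE 0.20) without a call. *VAMP1*, a synaptic form, was lower at -0.39 (SE 0.13, adjusted p = 0.014), and its exons share 10.4% of their bases with *TAPBPL* on the opposite strand.

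Of the 6 syntaxin-binding proteins, *STXBP5* was called, lower at 6 h (-0.23, SE 0.077, adjusted p = 0.043) and at 24 h (-0.24, SE 0.077, adjusted p = 0.0093). *STXBP5*, or tomosyn, occupies syntaxin and restrains fusion, and its value at 3 h was -0.16 without a call. The 6 h call was lost after removal of GC content and length trends (-0.17, adjusted p = 0.19). *STXBP2* had 0.05 (SE 0.049) and *STXBP3* -0.08 (SE 0.044) at 24 h without a call. *STXBP4* was at -0.18, -0.15 and 0.02 at 3, 6 and 24 h and *STXBP6* at -0.22 at 24 h, without a call.

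The 9 syntaxins of the Golgi, endoplasmic reticulum and endosome have roles in transport inside the cell, and the differences among them were small. At 24 h 1 of 9 was called, *STX12* of the endosome at -0.10 (SE 0.041, adjusted p = 0.039). At 6 h *STX18* of the endoplasmic reticulum was higher at 0.14 (SE 0.050, adjusted p = 0.049), and *STX7* of the late endosome (-0.16, SE 0.054, adjusted p = 0.038) and *STX16* of the trans-Golgi (-0.10, SE 0.035, adjusted p = 0.043) were lower. *STX18* lost its call after recentring (0.12, adjusted p = 0.14). After removal of GC content and length trends *STX18* was at 0.14 (adjusted p = 0.070), *STX16* at -0.09 (adjusted p = 0.098) and *STX7* at -0.08 (adjusted p = 0.51), each without a call. *STX16* shares 28.5% of its exon bases with the read-through gene *STX16-NPEPL1* on the same strand. *STX5*, *STX6*, *STX8*, *STX10* and *STX17* were not called at any time, with 24 h values from -0.01 for *STX5* to 0.12 for *STX6*.

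Levels of the 68 genes spanned 1.03 normalized counts per kb for *SYT12* to 6177 for *VAMP8*, with a median of 117.7 against 151.4 over 19501 genes. *VAMP8*, *STX3* (3178), *VAMP3* (2432) and *RAB3B* were the highest. Lengths were those of the longest transcript, and the order moves with this choice. With the median transcript length *STX3*, *RAB27B*, *VAMP8* and *VAMP3* led, while every family ratio given above kept its direction. In the family comparisons the higher expressed form was *SNAP23*, *STX3*, *VAMP8* and *RAB27B*, against *SNAP25*, *STX1A*, *VAMP2* and *RAB27A*, the forms best known from neurons and islet cells. Precision followed level. The 17 members under a mean normalized count of 100 had a median SE of 0.30 at 24 h and 3 calls, none smaller than 1.07 in absolute log2 fold change. The 23 members from 100 to under 1000 had a median SE of 0.11 and 9 calls, and the 28 members at 1000 or more had a median SE of 0.049 and 10 calls, down to 0.10. With a limit of 0.5 added for the size of the log2 fold change, 9 members remained, *SYT4*, *SYT6* and *RIMS2* higher and *SYT2*, *SYT11*, *SYT13*, *RIMS3*, *SYTL2* and *STX11* lower, beside 8.68% of all genes.

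**Figure D3:**
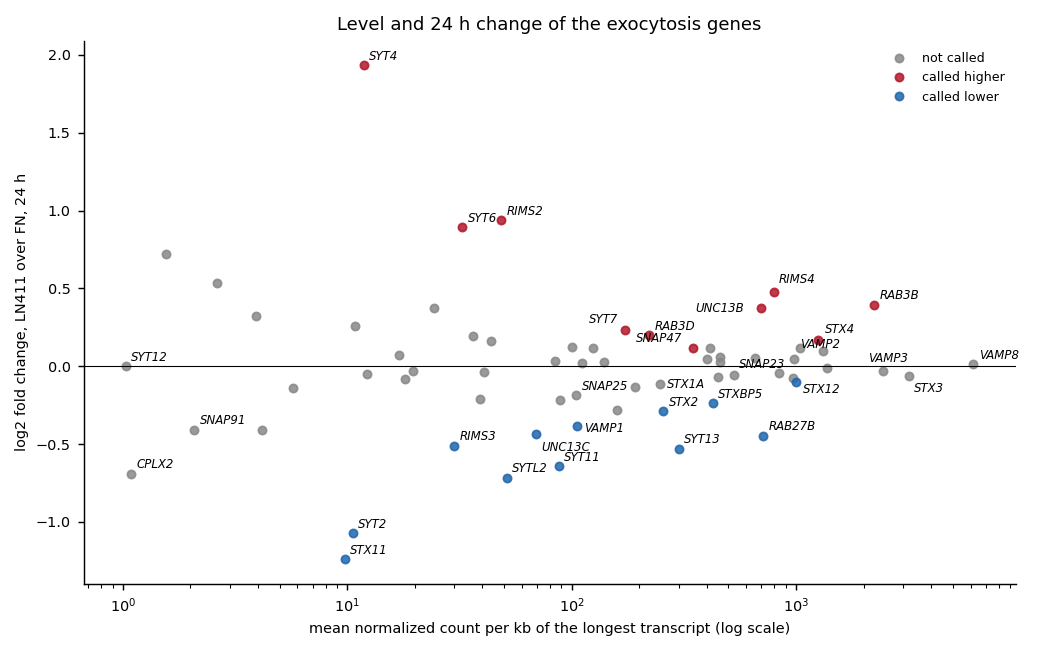
Mean normalized count per kb of the longest transcript (horizontal axis, log scale) against the log2 fold change of LN411 over FN at 24 h (vertical axis) for the genes reported here. The values past 0.8 in either direction belong to genes under 50 normalized counts per kb, while *VAMP8*, *STX3* and *VAMP3* at the right lie near 0.

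A list of 72 further genes of exocytosis and membrane fusion outside these families was read in the same way, of which 69 were listed. At 3 h none of 68 tested was called, with 3 under an unadjusted Wald p-value of 0.05. At 6 h 4 of 59 (6.78%) were called, beside 8.23% of all genes, and *SCAMP1*, *SCAMP2*, *SCAMP5* and *DNAJC5*, proteins of vesicle membranes, were each higher by 0.10 to 0.16. At 24 h 20 of 69 (28.99%) were called, beside 29.5% of all genes. Of these 16 were higher and 4 lower, and recentring changed this split to 12 and 6, beside 29.2% of all genes called. Of 52 priming, docking and vesicle proteins 13 were higher and 4 lower at 24 h, and of 17 SNAREs and partners of the internal membranes 3 were higher. At 24 h 7 of the called genes lay more than 0.5 from 0. *RIMBP2*, which ties RIM proteins to calcium channels, was at 1.39 (SE 0.23, adjusted p = 1.26e-08), and *SLC18A1*, the vesicular monoamine transporter of endocrine cells, at 1.26 (SE 0.11, adjusted p = 1.29e-30). *RAB26*, a granule GTPase, was at 1.01 (SE 0.13), *MYRIP*, a RAB27 effector, at 0.93 (SE 0.38, adjusted p = 0.048) and *PTPRN*, a granule membrane protein also called IA-2, at 0.68 (SE 0.20). *SYNGR3*, a synaptic vesicle protein, was at -0.72 (SE 0.14) and *EXPH5*, a further RAB27 effector, at -0.61 (SE 0.083). The RAB27 effectors outside the SYTL family thus included a higher and a lower gene as well.

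**Figure D4:**
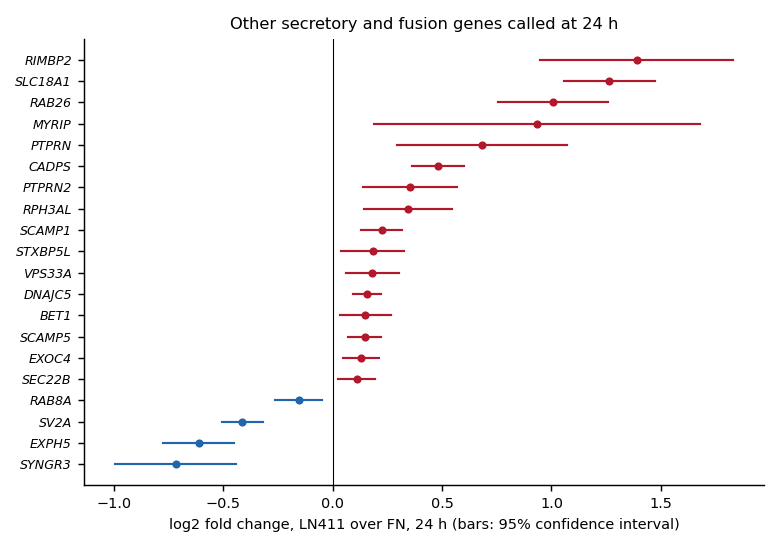
Log2 fold change of LN411 over FN at 24 h (horizontal axis) with 95% confidence intervals for the 20 genes called among 69 further exocytosis and fusion genes. Higher values from *RIMBP2* at 1.39 down to *SEC22B* at 0.11 stand above 4 lower ones ending with *SYNGR3* at -0.72.

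Markers of cell types that use this machinery moved at the same time. Of 12 endocrine markers 9 were higher at 24 h, with *NEUROG3* at 2.54 (SE 0.12), *NKX2-2* at 2.31 (SE 0.17), *NEUROD1* at 1.54 (SE 0.27) and *CHGA* at 1.05 (SE 0.13). *INS*, *GCG* and *SST* were not called, and the mean normalized counts of *INS* and *GCG* were 8.32 and 16.3. Of 7 neuron markers, 5 were listed at 24 h: *DCX* was higher (0.79, SE 0.063), *STMN2* (-1.06, SE 0.12) and *NEFM* (-0.53, SE 0.20) were lower, *MAP2* and *SNAP91*, which is also a member, were not called, and *ELAVL4* was not listed at any time. Of 3 mesenchyme markers *PDGFRB* was lower (-0.66, SE 0.20). *PDX1* and *GP2* of the progenitor list were higher at 24 h (0.60 and 0.90). Their part in the exocytosis values was not tested.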

How the data were processed

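Per the labels, polyadenylated RNA was prepared with NEBNext kits. The authors used STAR 2.7.2d for alignment to GRCh38 and for counts per gene of GENCODE v32, and DESeq2 1.34.0 for LN411 against FN at each time. The model formula and the strand setting of the counting are not given in the sources used here. In the deposited table the signal is a mean normalized count, scaled by size factors and averaged by the authors over all 18 samples. Fold change and standard error are deposited on the log2 scale, and the deposited Wald statistic is a score, their quotient. The table's columns of p-values, as deposited by the authors, gave the filter on low counts. These columns come from the authors' own comparison and stand in for the count model planned, because values per sample were not analysed here. All p-values and Benjamini-Hochberg adjustments were recomputed from log2 fold change and SE over all genes, and adjusted values were within 9.72e-06 of the deposited ones.

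Differences between times were divided by the root of the summed squared SEs with adjustment over every gene listed at both. The times were treated as independent, and a differentiation shared between them is not given in the sources used here. Members were matched by symbol, and all 68 to GENCODE v44 on GRCh38 by identifier for positions, lengths and exon overlaps. Promoters are RefSeq sequences (GRCh38.p14), matched for 54 members. The members and lists were chosen with earlier results of these data known. Named were members with textbook roles, members called at 3 or 6 h, those called at 24 h at 0.5 or more from 0 on the log2 scale, those whose effect differed between 6 and 24 h, and further genes and markers by the same limits. Other members were named after their values were seen, to account for the families. All 68 enter the counts, while values of a few members are not given here.

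Alternatives were an adjusted p under 0.01, no filter, a mean count of at least 100, a t distribution with 12 degrees of freedom, recentring, removal of GC and length trends over 25 bins in 3 rounds, a fold limit, another transcript length and a looser motif. On simulated data with 18672 genes and 200 changed by 0.5, 195 were recovered at 24 h with 14 false calls, and 191 for the difference from 6 to 24 h with 9. The 200 were drawn only from genes with a mean normalized count of 1000 or more, which 28 members reach. The noise was drawn from the deposited SEs. The simulation therefore checks the computation and gives no recovery rate for genes at lower counts. Python 3.11.15, numpy 2.4.6, pandas 2.3.3, scipy 1.17.1 and matplotlib 3.10.9 were used.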

Additional observations from a re-analysis of the deposited data

Results flagged for a closer look

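The genes below were taken up because the effect of LN411 against FN differed between time points by a test of the difference itself, with a Benjamini-Hochberg adjusted p under 0.05 over all genes listed at both times. From 3 to 6 h the log2 fold change of *RIMS4* changed by -0.33. From 6 to 24 h it changed by 0.85 in *RIMS4*, 1.37 in *SYT4*, 0.83 in *RIMS2*, 0.41 in *RAB3B* and 0.36 in *UNC13B*. Over the same interval it changed by -1.23 in *STX11*, -0.85 in *SYT2*, -0.76 in *SYTL2*, -0.63 in *SYT11*, -0.47 in *RAB27B*, -0.42 in *UNC13C* and -0.40 in *SYT13*. Groups of 3 samples and a table without values per sample gave no test for a sample far from the others.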

How the results depend on the processing

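No called value changed sign under any alternative run. The 6 calls at 6 h were the least stable: 1 remained at an adjusted p under 0.01, 1 without independent filtering, 1 with a t distribution, 2 once GC and length trends were removed and 0 with the limit of 0.5 on the size of the log2 fold change. Calls over all genes fell as well, from 8.23% to 4.46, 4.35, 2.61, 6.05 and 0.386% under these settings, in the same order. *RIMS4* was kept in all but the fold limit. At 24 h the count of 22 became 9 with the fold limit and lay between 17 and 23 otherwise. Over all genes 29.5% became 8.68% with the fold limit and lay between 21.7% and 41.5% otherwise. With the t distribution and with an adjusted p under 0.01 *STX4*, *RAB3D*, *STX12*, *VAMP1* and *SNAP47* were lost. The 20 calls among further exocytosis genes became 13 at an adjusted p under 0.01 and 7 with the fold limit, beside 21.7% and 8.68% of all genes. The single difference from 3 to 6 h became 0 with the t distribution, under which 0 of all genes differed over that interval. With the t distribution *SYT11*, *STX11*, *UNC13C* and *SYT2* also lost their difference from 6 to 24 h. The count of 12 from 6 to 24 h lay between 8 and 13, and the 13 from 3 to 24 h between 10 and 13. In the main setting 12.8% and 17.0% of all genes differed over these intervals. From 6 to 24 h 8 members remained both at an adjusted p under 0.01 and with the t distribution, beside 8.57% and 7.35% of all genes. The cause of these changes was not tested. The median level moved from 117.7 to 388.5 normalized counts per kb with the median transcript length, and promoters of higher genes with the motif from 0 to 7 with CANNTG, which by construction matches more sequences. Recentring removed medians of 0.013, 0.025 and 0.021 at 3, 6 and 24 h. No paired analysis was possible because values per sample were not analysed here, and for the same reason a refit with another count model or normalization and fits without single replicates were not run. At 24 h the SEs were largest in members at low mean normalized counts, which include several synaptotagmins, the complexins, *UNC13A* and *SNAP91*.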
